A study of Mus musculus with 6 samples.

Results

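The nuclear-encoded genes of oxidative phosphorylation were examined in sorted mouse Paneth cells of 2 diets. The members were the protein-coding genes of the GENCODE mouse annotation whose symbols begin with Nduf followed by a, b, c, s or v, with Cox4 to Cox8, with Uqcr or with Atp5, together with Sdha, Sdhb, Sdhc and Sdhd. This rule gave 98 genes, all of which had a row among the 55414 genes of the count table. By complex, 38 belonged to complex I, 8 were Ndufaf assembly factors of complex I, 4 belonged to complex II, 8 to complex III, 21 to complex IV and 19 to ATP synthase. Ndufa4 and its relative Ndufa4l2, which carry a complex I name, were placed with complex IV. Cox5b-ps, which is named as a pseudogene of Cox5b but annotated as protein-coding, was also counted there. The symbol Atp5po occurred with 2 gene identifiers, one of which had no count in any library.

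Bulk RNA-seq had been performed on Paneth cells, the granular secretory cells at the crypt base that release α-defensins and lysozyme, which had been isolated by FACS. The small intestines came from wild-type mice, of the C57BL/6J strain in the study's methods. Standard chow had been fed for 7 weeks to the mice of 3 libraries, and zinc depleted chow for 7 weeks to those of the other 3. All mice had been treated with TNF for 3 hours, so both groups share this treatment and the response to TNF was not measured. The labels give 3 libraries per group against 4 replicates in the design text, and neither the age of the mice nor a batch is given.

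Oxidative phosphorylation takes place at the inner mitochondrial membrane. Complexes I and II pass electrons from NADH and succinate to ubiquinone, complex III passes them on to cytochrome c and complex IV reduces oxygen, while the protons pumped by complexes I, III and IV drive ATP synthase. Most subunits are encoded in the nucleus, and a small hydrophobic core of complexes I, III, IV and ATP synthase is encoded by mitochondrial DNA. In many cell types this pathway is a main source of ATP beside glycolysis, and its use by Paneth cells was not measured here.

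The promoters of many of these genes are known to bind nuclear respiratory factor 1 (NRF1), a regulator of mitochondrial genes, and the motif was found here in a minority. The window from 250 bases before to 50 bases after the start of the canonical transcript was searched on both strands. The NRF1 motif, GCGCA and GCGC parted by any 1 base, was present in 14 of 98 members (14.3%) and in 5.81% of all protein-coding genes of the table. Among genes that passed the expression filter, it was present in 16.3% of members and in 10.3% of all. The ETS motif CCGGAAG, bound by GABPA, was found in 16.3% of the tested members and 17.4% of all tested protein-coding genes. The YY1 motif AAGATGGC was found in 6.98% and 3.93%, and the motif TCAAGGTCA of the estrogen-related receptors in 1.16% and 0.345%. A match is a string in this window and does not show binding. Examples of the NRF1 motif are given, 1 for each of complexes I, II and IV and 1 for an assembly factor. Only motifs whose printed stretch lay wholly before the start could be chosen, so the examples do not show where the motif usually lies. Each line gives 60 bases of the reference genome GRCm39 in the direction of transcription, with the motif in capitals.
Sdhd (complex II), chr9:50515194-50515253, minus strand: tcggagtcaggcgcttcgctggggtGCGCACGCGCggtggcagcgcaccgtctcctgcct
Cox6a1 (complex IV), chr5:115487100-115487159, minus strand: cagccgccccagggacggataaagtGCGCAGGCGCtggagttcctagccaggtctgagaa
Ndufb11 (complex I), chrX:20484465-20484524, minus strand: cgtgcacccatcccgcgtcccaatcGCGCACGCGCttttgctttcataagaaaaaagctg
Ndufaf4 (assembly factor), chr4:24897945-24898004, plus strand: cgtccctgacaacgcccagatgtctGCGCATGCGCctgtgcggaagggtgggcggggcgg
In these genes the motif ended 95, 85, 33 and 102 bases before the start. Cox6a1 held a second copy, which ended 130 bases before it.

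The members made up a small part of a library that was mostly α-defensin and other Paneth cell products. They took 0.652%, 0.537% and 0.347% of all counts (replicates 1, 2 and 3, in this order here and in the values that follow) on standard chow against 0.303%, 0.322% and 0.351% on zinc depleted chow. The 95% Wilson intervals, which cover counting error only, were within 0.01 percentage points of these values. Standard diet replicate 3 lay within the range of the zinc depleted libraries, so the groups overlapped. Between 90 and 91 of the 98 members had at least 1 count in each library.

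Library totals ranged from 6139397 to 12772373 counts, and a count of 0 allows up to 3 counts, or 0.235 to 0.489 CPM (a count divided by the total of its library and scaled up by the same number everywhere). The 8 Paneth cell markers together took 501589 to 600468 CPM in the standard diet group and 539458 to 624200 CPM in the zinc depleted group, and none of them was at 0. Because such products fill most of a library, the level of every other gene depends on the scaling. TMM factors, which correct for composition, were 1.73, 1.51 and 0.897 in the standard diet group and 1.46, 0.639 and 0.459 in the zinc depleted group. Replicates of a group differed by more than counting noise in every pair. The study's methods describe samples taken from individual mice.

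As levels scaled for transcript length (TPM), the members ranged from 0 to 144. Cox4i1, a regulatory subunit of complex IV, was the highest with a mean of 144 TPM over the 6 libraries. It was followed by the catalytic β subunit of ATP synthase, Atp5f1b, with 143 TPM. The ε subunit Atp5f1e had 124 TPM, and Ndufa4 came next. Over all members of a complex, those at 0 included, the median was 32.4 TPM in complex III, 31.9 in complex IV, 31.8 in ATP synthase, 15.3 in complex II and 14.3 in complex I. Over the members that passed the filter on low counts, it was 45.96 TPM in complex IV (12 of 21) and 35.3 in ATP synthase (17 of 19). The Ndufaf assembly factors, which help to build complex I and are not part of it, were lower, with a median of 1.59 TPM and a highest value of 3.72 TPM. Several canonical transcripts are long for short coding parts, so the level of those genes depends on the length used. Which length fits the transcripts of these cells was not examined. On the scale of coding length Atp5f1e ranked first (mean 212), followed by Uqcrh and Cox4i1 (both 139).

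Tissue isoforms of complex IV known from lung, heart, muscle and testis were at or near 0. Cox4i2, Cox6a2, Cox7b2, Cox8b and Cox8c had no count in any library, while their partners Cox4i1, Cox6a1, Cox7b and Cox8a had mean levels of 144, 85.4, 44.2 and 83.5 TPM. Cox6b2 had 4, 10 and 5 counts on standard chow against 1, 0 and 14 on zinc depleted chow, while Cox6b1 had 576 to 1204 counts over the 6 libraries. Cox7a1 had 6, 10 and 13 counts against 4, 7 and 11, where Cox7a2 had 267 to 917. Ndufa4l2, known as a hypoxia-responsive relative of Ndufa4, had 0, 3 and 1 counts against 2, 1 and 1, where Ndufa4 had 440 to 1484. With 29 counts in all, Atp5mg, the g subunit of ATP synthase, was also close to 0, but 61.8% of the 75-base stretches of its transcript occur elsewhere in the genome.

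Such repeated stretches limit what can be read from single members. Of the 98 members, 60 had no 75-base stretch elsewhere in the genome, 12 had over 25% and 5 had over 50%. Atp5mc2 and Atp5mc1, which together with Atp5mc3 encode the same mature c-ring peptide of ATP synthase, had 88.0% and 76.4%. Cox7c had 70.0% and Ndufs5 69.0%. Levels of these genes are uncertain, since the treatment of reads with several matches is not given in the sources used here. Ndufb8 had none elsewhere in the genome but shared 64.8% with a transcript of another gene.

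The comparison of the diets asked which of these genes differed between zinc depleted and standard chow under TNF. No member passed. Of the 98 members, 86 passed the filter on low counts and were tested by edgeR's quasi-likelihood test on counts with TMM factors, together with 9749 genes in all. Adjusted p-values of the members ranged from 0.681 to 0.978 by edgeR with Benjamini-Hochberg adjustment over all tested genes. The test called 0% of all 9749 genes. DESeq2 called 10 of 9739 genes (0.103%), none of them members, and limma-voom called 0%. A member could pass the filter through the group in which it was high, so the 86 are not all members. Counts simulated for this comparison set the reach of the test, since 58 of 184 genes with a 4-fold change were recovered among 9441 genes.

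At an unadjusted p under 0.05, 3 of 86 members were higher with zinc depletion against 2.58% of all tested genes, and 0 were lower against 4.03%. The 3 were Ndufaf2, Ndufb6 and Uqcrq. Groups did not overlap on the TMM scale for 1 member that was higher, Ndufaf2, against 3.51% of all genes, and for 0 that were lower, against 6.58%. With total counts as the scale, 1 member was higher without overlap, against 0.554% of all genes, and 14 were lower without overlap, or 16.3% of members against 10.3% of all genes.

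The direction of the members turned with the scale. With TMM factors the log2 fold change (zinc depleted over standard) was above 0 for 72 of 86 members, against 50% of all tested genes, and its median was 0.57 against 0.00 over all. With total counts only it was above 0 for 11 members, against 13.1% of all genes, and the median was -0.50 against -0.67. The median of all genes shifted from 0.00 to -0.67 between the scales, and on either scale the median of the members lay above that of all genes, by less with total counts.

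**Figure D1:**
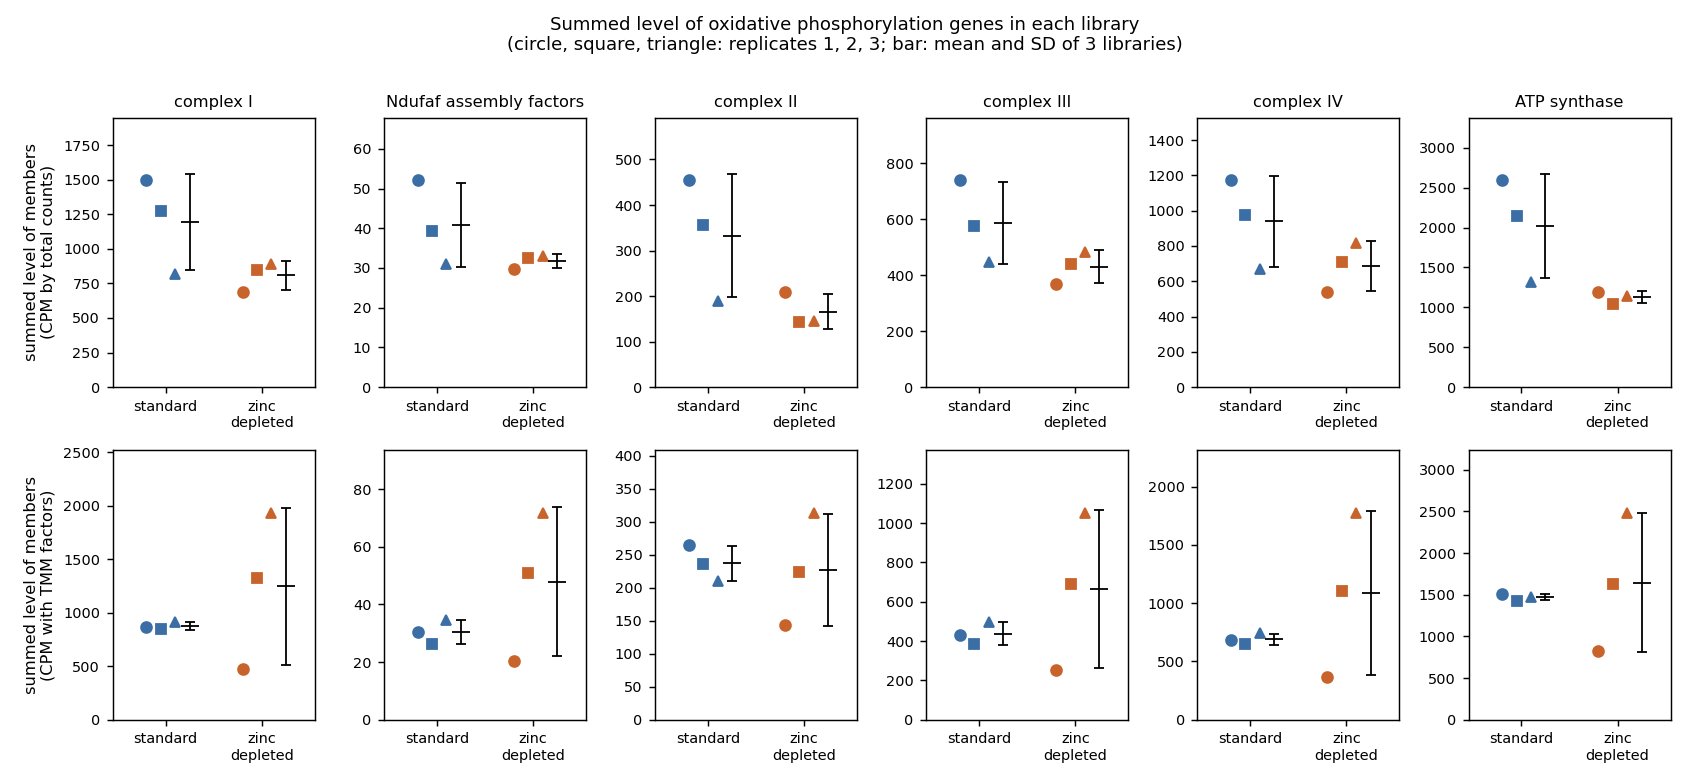
Summed level of the members of each complex in each library, in CPM by total counts (upper row) and CPM with TMM factors (lower row), with standard diet libraries in blue, zinc depleted libraries in orange and the bar giving mean and SD of 3 libraries. The zinc depleted libraries lie low or level on the upper row, while on the lower row replicate 1 lies below every standard diet library and replicate 3 above.

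The summed level of all members was 3785, 3574 and 3874 TMM-scaled CPM on standard chow against 2083, 5038 and 7642 on zinc depleted chow. Zinc depleted replicate 1 was thus below all standard diet libraries and replicates 2 and 3 were above. By total counts the sums were 6520, 5366 and 3471 CPM against 3030, 3216 and 3506 CPM. Without zinc depleted replicate 1, the unadjusted p was under 0.05 and the direction higher for 55 of 86 members, against 12.3% of 10010 genes, and the median log2 fold change was 1.01. Without zinc depleted replicate 3 the median was 0.01. In bulk samples, fewer cells of a type and less RNA per cell cannot be told apart.

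Markers of other cells were summed in the same libraries. No gene of these lists passed the adjusted threshold by edgeR. Summed over 5 stem cell markers, the level was 1250 to 3861 CPM in the standard diet group and 524 to 727 CPM in the zinc depleted group, and over 5 proliferation markers 59.9 to 156 against 31.2 to 47.0 CPM. The 10 enterocyte markers summed to 128 to 470 against 55.7 to 307 CPM, the 6 goblet markers to 7190 to 8539 against 4828 to 12022 CPM, and the 7 enteroendocrine markers to 35.5 to 113 against 24.8 to 34.8 CPM. The 5 tuft markers summed to 21.7 to 663 against 25.3 to 175 CPM, the 4 immune markers to 32.4 to 121 against 26.3 to 35.4 CPM, with Cd3e at 0 in every library, and the 4 muscle markers to 2.81 to 3.91 against 1.40 to 4.46 CPM. In CPM by total counts, the sums of the stem, proliferation and enteroendocrine markers were lower on zinc depleted chow without overlap, on a scale where 10.3% of all genes were. On the TMM scale all 3 overlapped, with 1009 to 2242 against 499.8 to 1226 for stem, 56.9 to 90.5 against 32.3 to 80.03 for proliferation, and 39.6 to 75.3 against 17.1 to 75.8 for enteroendocrine markers. The 8 Paneth cell markers summed to 291198 to 670100 against 370847 to 1360470 on the TMM scale. All 8 had a log2 fold change above 0 with TMM factors, and their median was 0.88, against 0.05 with total counts only. The part of any of these cells in the levels of the members was not tested.

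**Figure D2:**
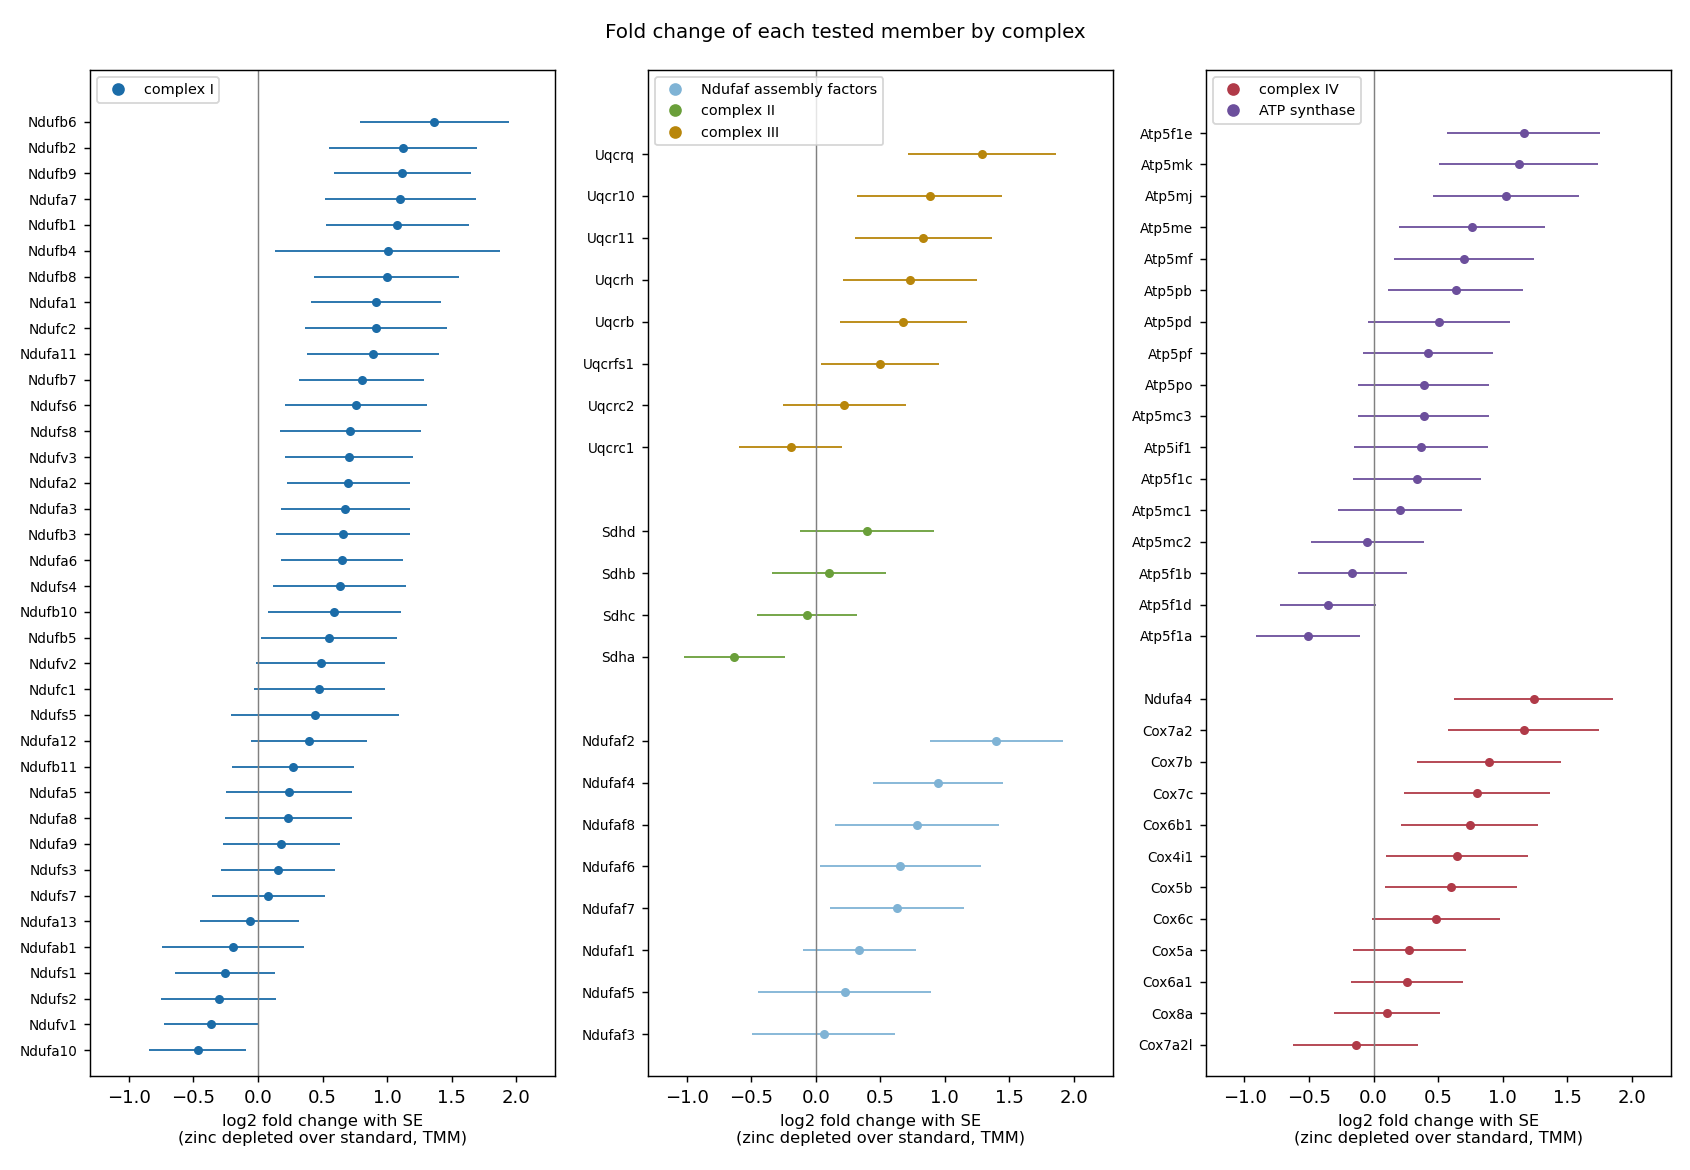
Log2 fold change (zinc depleted over standard, TMM) with an SE derived from the edgeR test for each of the 86 tested members, grouped by complex and ordered by size. Most points lie right of 0, while Sdha, Atp5f1a, Ndufa10 and Ndufv1 lie left of it, and no member passed the adjusted threshold. With total counts only, 11 of 86 lie right of 0.

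In complex I, the log2 fold change was above 0 for 31 of 37 tested subunits with TMM factors, with a median of 0.63, and for 4 with total counts only. The 7 nuclear-encoded core subunits, which as a set hold the flavin and the iron-sulfur clusters, had a median of 0.08, with 4 above 0, and ranged from -0.36 for Ndufv1, the flavin-binding subunit, to 0.72 for Ndufs8. The 30 tested accessory subunits had a median of 0.67, with 27 above 0. With total counts only these medians were -0.94 and -0.41. Here and in the other complexes, parts were set apart after their values were seen, and the difference between parts was not tested. Ndufb6, an accessory subunit of the membrane arm (chromosome 4, 40270581 to 40279468), had 9.65, 9.87 and 17.9 TMM-scaled CPM on standard chow against 9.22, 33.9 and 53.8 on zinc depleted chow. Replicate 1 of the zinc depleted group was below all standard diet libraries, and the log2 fold change was 1.37 ± 0.58 (SE, n = 3 and 3, adjusted p = 0.681 by edgeR). Ndufa10, a large accessory subunit on the matrix side, gave the lowest fold change of the complex, -0.47 ± 0.38 (adjusted p = 0.731 by edgeR), with 32.8, 30.05 and 21.7 against 17.1, 26.8 and 17.4 TMM-scaled CPM. Ndufa1, a small membrane-arm subunit and the complex I subunit with the highest TPM, had 20.8, 20.6 and 33.9 against 18.3, 48.3 and 75.8, with a log2 fold change of 0.92 ± 0.51. Ndufs6, a zinc-binding accessory subunit that was picked after its values were seen, had a log2 fold change of 0.76 ± 0.55, from 26.7, 27.4 and 38.1 to 15.3, 49.97 and 91.3 TMM-scaled CPM. Without zinc depleted replicate 3 the log2 fold changes of Ndufb6, Ndufa1 and Ndufs6 were 0.81, 0.44 and 0.11.

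All 8 Ndufaf assembly factors had a log2 fold change above 0 with TMM factors, with a median of 0.64, and 2 did with total counts only. Ndufaf2, a paralogue of a complex I subunit that binds a late assembly intermediate (chromosome 13, 108139249 to 108295189), had the largest log2 fold change of the 86 tested members. It had 18, 17 and 23 counts on standard chow against 44, 28 and 39 on zinc depleted chow. These were 1.42, 1.84 and 2.57 against 3.03, 5.90 and 6.66 TMM-scaled CPM, and all zinc depleted libraries were above all standard diet libraries on this scale and on that of total counts. The log2 fold change was 1.40 ± 0.52 (SE, n = 3 and 3, unadjusted p = 0.020 and adjusted p = 0.681 by edgeR). Ndufaf8, the assembly factor with the highest TPM, had 3.88, 2.60 and 5.48 against 2.00, 5.48 and 13.5 TMM-scaled CPM, with a log2 fold change of 0.79 ± 0.63, which was -0.12 without zinc depleted replicate 3. Ndufaf3 gave the smallest of the 8 at 0.06 ± 0.55, and its sign turned with the method.

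Complex II, succinate dehydrogenase, has no subunit encoded by mitochondrial DNA. With TMM factors 2 of its 4 members had a log2 fold change above 0, and with total counts only 0 did. Its flavoprotein Sdha (chromosome 13, 74469359 to 74498436) had the lowest log2 fold change of the 86 tested members, -0.63 ± 0.39 (SE, n = 3 and 3, adjusted p = 0.686 by edgeR). It had 103, 75.5 and 52.3 TMM-scaled CPM on standard chow against 57.7, 47.4 and 44.0 on zinc depleted chow, so that zinc depleted replicate 1 lay above standard diet replicate 3. The iron-sulfur subunit Sdhb had 35.4, 44.6 and 44.6 against 22.6, 42.4 and 69.1, with a log2 fold change of 0.10 ± 0.44. The membrane anchor Sdhc had 68.3, 63.02 and 58.4 against 39.6, 63.04 and 78.5, with a log2 fold change of -0.07 ± 0.39. The second anchor, Sdhd, had 57.4, 53.7 and 54.6 against 24.4, 71.5 and 123, with a log2 fold change of 0.40 ± 0.52. The RNA fold changes of the 4 subunits thus spread over about 1 log2 unit, with SEs of 0.39 to 0.52. The smallest adjusted p among them was 0.686 by edgeR.

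In complex III, 7 of 8 members had a log2 fold change above 0 with TMM factors and 1 with total counts only. The small subunits Uqcrb, Uqcrh, Uqcrq, Uqcr10 and Uqcr11 ranged from 0.68 to 1.29 with a median of 0.83, whereas Uqcrc1, Uqcrc2 and Uqcrfs1, the core proteins and the Rieske iron-sulfur protein, ranged from -0.19 to 0.50. Uqcrq, a small subunit near cytochrome b, had 44.4, 43.8 and 71.6 TMM-scaled CPM on standard chow against 37.0, 130 and 223 on zinc depleted chow. Its log2 fold change was 1.29 ± 0.58 (unadjusted p = 0.047 and adjusted p = 0.681 by edgeR, n = 3 and 3). Uqcr10, the member of this complex with the highest TPM, had 39.5, 33.5 and 54.0 against 21.7, 82.4 and 130, with a log2 fold change of 0.88 ± 0.56. Uqcrc1 had 90.7, 85.2 and 78.6 against 49.4, 66.6 and 106, with a log2 fold change of -0.19 ± 0.40. For Uqcrq and Uqcr10 it was 0.69 and 0.33 without zinc depleted replicate 3.

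In complex IV, 11 of 12 tested members had a log2 fold change above 0 with TMM factors, with a median of 0.62, and 2 did with total counts only. Ndufa4, a subunit of complex IV that was first assigned to complex I, had the largest at 1.24 ± 0.62 (adjusted p = 0.681 by edgeR, n = 3 and 3). It had 59.1, 47.7 and 77.6 TMM-scaled CPM on standard chow against 32.2, 151 and 253 on zinc depleted chow. Cox4i1 had 148, 146 and 158 against 69.8, 248 and 389, with a log2 fold change of 0.64 ± 0.55. The zinc depleted libraries thus lay on both sides of the standard diet libraries. Cox7a2l, known for a role in supercomplexes of complexes III and IV, gave the only value below 0, -0.14 ± 0.48. It went from 46.3, 39.8 and 28.9 to 13.3, 44.3 and 47.3 TMM-scaled CPM, with 35.0% of its stretches elsewhere in the genome. Cox5b, the zinc-binding subunit of the complex and picked after its values were seen, had 37.7, 37.3 and 41.7 against 20.1, 58.0 and 98.8. Of its stretches, 30.1% lie elsewhere in the genome. Its log2 fold change was 0.60 ± 0.51. For Ndufa4, Cox4i1 and Cox5b it was 0.61, 0.11 and 0.035 without zinc depleted replicate 3.

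In ATP synthase, 13 of 17 tested members had a log2 fold change above 0 with TMM factors, with a median of 0.39, and 2 did with total counts only. The F1 head, which holds the catalytic sites, held both the lowest and the highest value. Atp5f1a, the α subunit, had the lowest value of the enzyme at -0.51 ± 0.40 (adjusted p = 0.729 by edgeR, n = 3 and 3), from 372, 346 and 279 to 199, 209 and 293 TMM-scaled CPM. The β subunit Atp5f1b had 432, 421 and 358 against 251, 348 and 480, with a log2 fold change of -0.17 ± 0.42. Atp5f1e, in the central stalk, had the largest at 1.16 ± 0.59, from 54.3, 47.1 and 88.7 to 36.9, 158 and 231. Over the 5 subunits of F1 the median was -0.17, and over the 3 c-ring genes it was 0.21. Atp5if1, the inhibitor that binds F1 when the proton gradient falls, had 46.0, 41.1 and 46.2 against 18.7, 58.6 and 95.2, with a log2 fold change of 0.37 ± 0.52. For Atp5f1e and Atp5if1 it was 0.65 and -0.17 without zinc depleted replicate 3.

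The make-up of the pathway within a library does not depend on the scaling. Of the counts of all members, F1 took 27.5%, 27.4% and 22.9% on standard chow against 27.8%, 17.7% and 16.7% on zinc depleted chow. Complex IV took 18.0%, 18.2% and 19.2% against 17.8%, 22.0% and 23.3%. The small subunits of complex III took 5.81%, 5.37% and 7.66% against 6.71%, 9.36% and 9.44%. Counting error was at most 0.59 percentage points (on either side, Wilson interval), for any complex in any library. In each of these, zinc depleted replicate 1 lay within or next to the range of the standard diet libraries, and replicates 2 and 3 lay outside it.

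**Figure D3:**
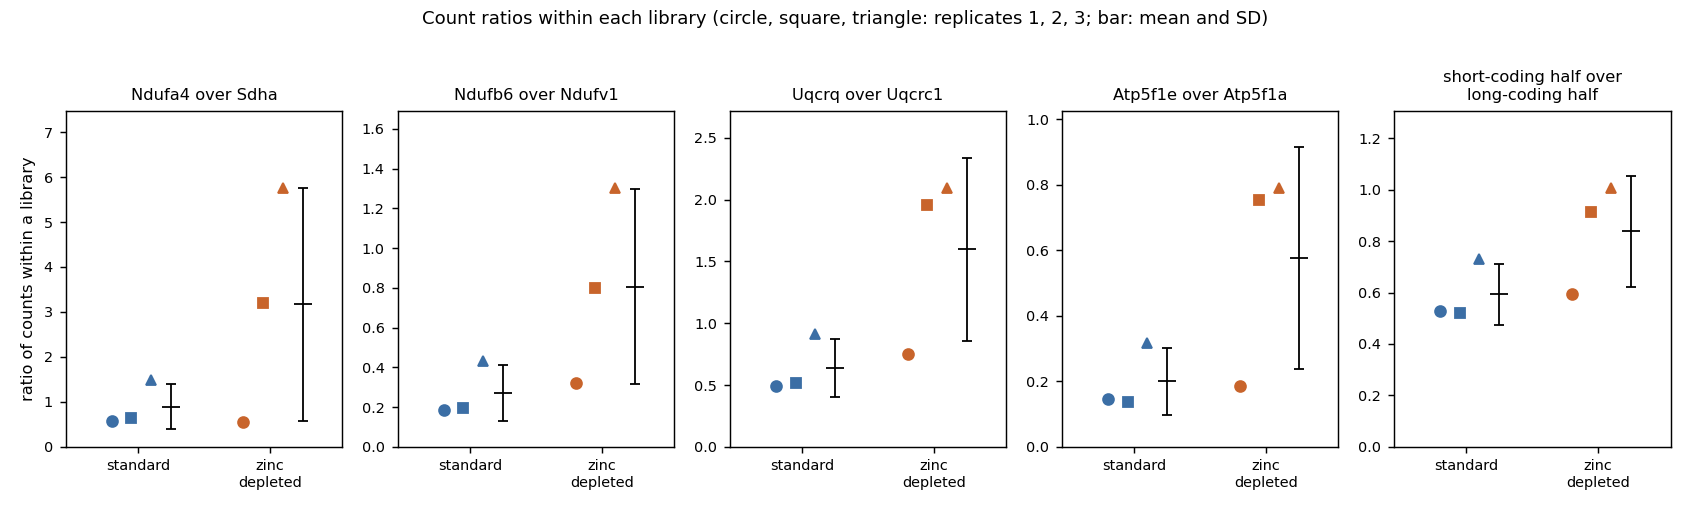
Ratio of counts of 2 members within each library for 4 pairs picked after their values were seen, and of the members with short coding parts to those with long ones (split at their median), with the bar giving mean and SD of 3 libraries. Zinc depleted replicates 2 and 3 lie above every standard diet library in each panel, while zinc depleted replicate 1 lies near the standard diet libraries.

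The same was seen gene by gene. The ratio of Ndufa4 to Sdha counts was 0.573, 0.632 and 1.48 on standard chow against 0.558, 3.19 and 5.75 on zinc depleted chow. The ratio of Atp5f1e to Atp5f1a was 0.146, 0.136 and 0.318 against 0.186, 0.753 and 0.789, and that of Uqcrq to Uqcrc1 was 0.490, 0.515 and 0.910 against 0.749, 1.96 and 2.09. In the first pair the zinc depleted libraries held the lowest and the highest value of all 6. In each of these pairs standard diet replicate 3 lay above zinc depleted replicate 1, so the groups overlapped. These pairs were picked for their fold changes, and the ratios are a description.

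Members with short coding parts had the higher fold changes, and so had short genes outside the pathway. Across the 86 tested members, Spearman's rho between log2 fold change and coding length was -0.61, and across the 9481 other tested protein-coding genes it was -0.33. These points are genes of the same 6 libraries and are not independent. The 43 members with a coding length up to the median of 445.5 bases had a median log2 fold change of 0.74, with 41 above 0. The 604 other protein-coding genes of that length had a median of 0.59, with 487 above 0. The 43 longer members had a median of 0.27, with 31 above 0, and the 8877 longer other genes had -0.04, with 4196 above 0. These values used TMM factors. With total counts only the medians were, in the same order, -0.346, -0.352, -0.797 and -0.691. Removing each library's trend on transcript length and GC content was added after seeing the data. The medians were then 0.034, 0.188, -0.058 and -0.038. Over all tested members the median was 0.00 against -0.03 over all genes. Without zinc depleted replicate 1, also added after seeing the data, it was 0.20 against -0.08.

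**Figure D4:**
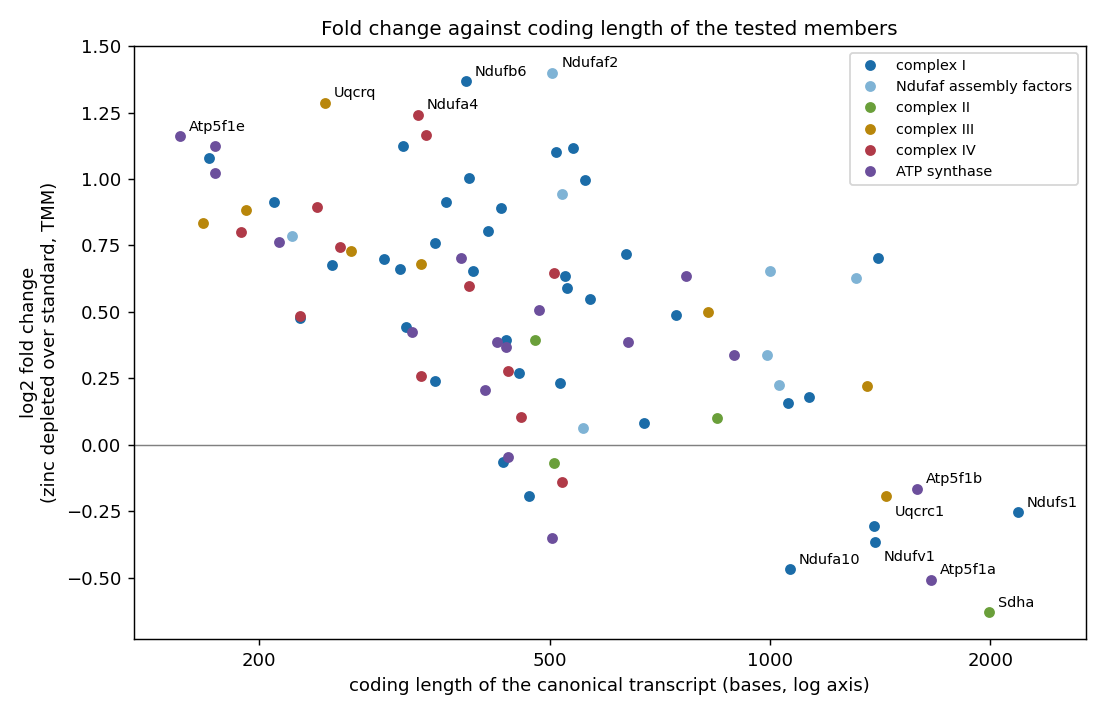
Log2 fold change (zinc depleted over standard, TMM) of the 86 tested members against the coding length of the canonical transcript on a log axis, coloured by complex. The shortest members lie above 0. Of the long members, Sdha, Atp5f1a and Ndufs1 lie below 0, while Ndufv3, Ndufaf7 and Uqcrc2 lie above it. With total counts only, 11 of the 86 points would lie above 0.

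The genes that mitochondrial DNA encodes for the same complexes were read as a sum. Of 13, 6 were listed at 0 in every library, among them mt-Co2 and mt-Atp6, so the sum covers the other 7. It was 7081, 3709 and 4898 CPM on standard chow against 3242, 7344 and 7361 CPM on zinc depleted chow. The ratio of the nuclear-encoded members to this sum was 0.921, 1.45 and 0.709 against 0.935, 0.438 and 0.476. Zinc depleted replicate 1 again lay among the standard diet libraries, and replicates 2 and 3 lay below them. With TMM factors all 6 tested genes of mitochondrial DNA had a log2 fold change above 0. Their median was 1.17, against 0.14 with total counts only, and none passed the adjusted threshold.

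No gene passed the adjusted threshold in the other lists of the pathway. Of 18 electron carriers and subunits outside the naming rule, such as cytochrome c and the coenzyme Q enzymes, 9 had a log2 fold change above 0 and the median was 0.01. Of 48 tested assembly factors outside the rule, 28 were above 0 with a median of 0.25. Of 17 genes of the TCA cycle and pyruvate dehydrogenase, which supply NADH and succinate, 5 were above 0 with a median of -0.14. Of 14 tested glycolysis genes, 6 were above 0 with a median of -0.13, and of 11 carriers and porins 5 were above 0 with a median near 0.00. Among 14 tested regulators of mitochondrial biogenesis, 7 were above 0 and the median was -0.01. Cytosolic ribosomal proteins, which also have short coding parts, were above 0 for 71 of 74 with 0.71 as the median. On the scale of total counts, the medians of these 7 lists were all below 0, between -1.05 and -0.41.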

How the data were processed

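Bulk RNA-seq of 6 libraries of sorted Paneth cells was analysed, 3 per diet, grouped by the labels. The authors deposited raw counts per gene. The submitters' processing notes name FastQC, Trimmomatic 0.39, STAR 2.7.10a, DESeq2 and the build mm39 (GRCm39). Which program counted the reads, whether by strand, and how reads with several matches were treated is not given in the sources used here. Symbols, positions and lengths came from GENCODE M39 by identifier (54749 of 55414 matched), and sequences from GRCm39. The members and the lists were chosen with earlier results of these data known.

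Diets were compared with edgeR 4.0.16 (quasi-likelihood test, TMM, filterByExpr, Benjamini-Hochberg over all tested genes, threshold 0.05, two-sided), with all 6 libraries and diet as the only term. Fold changes with errors were given for the SDH subunits, for the tested member of each group with the highest TPM, the largest and smallest fold change or the smallest p, and for Atp5if1, Cox7a2l and Ndufa4. Each SE was derived as the absolute log2 fold change divided by the square root of the F statistic of the edgeR test. TPM used the canonical transcript length. Alternatives were DESeq2 1.42.0, limma-voom 3.58.1, other scalings and filters, a replicate block, each replicate left out, and trends on length and GC removed. The procedure was tested on simulated data. Uniqueness was counted over 75-base stretches of each canonical transcript.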

Additional observations from a re-analysis of the deposited data

How the results depend on the processing

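No member passed the adjusted threshold under any alternative except total counts only with zinc depleted replicate 1 left out, where 9 of 86 (10.5%) were lower against 29.7% of all genes. Members higher at an unadjusted p under 0.05 numbered 7 with DESeq2 (8.14% against 4.26% of all genes), 1 with limma-voom, 0 with total counts, 13 with no filter (14.3% against 3.93%), 1 with at least 20 counts in every library, and 0 to 55 with a replicate left out (55 without zinc depleted replicate 1, 5 without standard diet replicate 3 and 0 without any other). With zinc depleted replicate 1 left out, the number was 0 with total counts and 22 with the length and GC trend removed (25.6% against 8.48%). Members lower numbered 7 with total counts (8.14% against 6.0%), and without that replicate 14 with total counts (16.3% against 50.7%) and 1 with the trend removed (1.16% against 9.05%). The median log2 fold change was -0.50 with total counts and -0.37 with total counts and without that replicate. It was 0.28 with limma-voom, 0.34 with the replicate block, 0.35 with at least 20 counts, and 0.01 to 1.01 with a replicate left out. With the trend removed it was 0.00, and 0.20 when zinc depleted replicate 1 was also left out, against -0.08 over all genes in that last setting. The log2 ratio of the share of counts was -0.66, and -0.19 when Defa genes, Lyz1 and Itln1 left the total. The settings that remove the trend, or combine another scale with leaving out that replicate, were chosen after seeing the data.

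Total counts reversed Sdhb (-0.88), Sdhd (-0.74), Atp5if1 (-0.75), Ndufa1 (-0.077), Ndufaf8 (-0.30), Ndufaf3 (-1.05), Uqcr10 (-0.21), Cox4i1 (-0.49), Ndufs6 (-0.34) and Cox5b (-0.51). The trend reversed Sdhd (-0.22), Atp5if1 (-0.30), Ndufaf3 (-0.20) and Cox5b (-0.11). Sdhb and Ndufaf3 were also reversed by limma-voom (-0.013 and -0.35) and by at least 20 counts (-0.081 and -0.16). With a replicate left out the ranges were -0.32 to 0.44 for Sdhb, -0.26 to 0.18 for Sdhc, -0.17 to 0.83 for Sdhd, -0.17 to 0.80 for Atp5if1, -0.39 to 0.27 for Cox7a2l, -0.12 to 1.27 for Ndufaf8, -0.47 to 0.51 for Ndufaf3, -0.51 to 0.043 for Uqcrc1 and -0.39 to 0.052 for Atp5f1b. Without zinc depleted replicate 3, 9 of the 22 named members shrank by over 1.5 times and 5 were reversed. Without zinc depleted replicate 1, 9 grew by over 1.5 times and 4 were reversed. The cause was not tested.

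After the mean of each group was taken off each gene, same-numbered libraries correlated at 0.147, -0.058 and 0.248. Different-numbered libraries ranged from -0.278 to 0.25. With 3 libraries per group, these values cannot show whether the numbers pair the libraries. With the replicate block 2 members were higher at an unadjusted p under 0.05 (2.33% against 4.53% of all genes). In both directions together 962 genes were under it, against 645 without the block. Sdhb (-0.031) and Ndufaf3 (-0.13) were reversed.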
